A study of Arabidopsis thaliana with 21 samples.

Results

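The genomic sites listed for 2 altered forms of the Arabidopsis thaliana transcription factor GLABRA2 (GL2), gl2_dSTART and gl2_Amo, were compared by chromatin immunoprecipitation and sequencing (ChIP-seq). The members were the deposited peaks of both forms on chromosomes 1 to 5 that did not overlap a peak of the gl2-5 null mutant by 1 bp or more. Of 2539 gl2_dSTART peaks 221 were removed by this filter (8.70%) and 2318 were kept, and of 3533 gl2_Amo peaks 302 were removed (8.55%) and 3231 were kept. The 5549 members came from 10293 nuclear peaks in the 6 lists of the series. A peak was called shared when it overlapped a kept peak of the other form by at least 1 bp, and private otherwise.

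The genotypes compared carried EYFP:gl2_dSTART or EYFP:gl2_Amo transgenes, with enhanced yellow fluorescent protein (EYFP) joined to the altered protein. Further fusions in the series were EYFP:gl2_dZip, EYFP:gl2_E375G R392M and wild-type EYFP:GL2, and the control was the gl2-5 null mutant without a transgene. All groups shared the gl2-5 homozygous background and the Columbia ecotype, and all were whole seedlings at an age of 10 days, fixed with 1% formaldehyde for 10 min and precipitated with an anti-GFP antibody. Per the labels, the wild-type transgene rescued the mutant phenotype, and the altered transgenes, gl2_dSTART and gl2_Amo among them, did not. The promoter driving the transgenes and the meaning of Amo are not given in the sources used here. The series has 21 libraries, among them 2 ChIP libraries and 1 input for gl2_dSTART, and 3 ChIP libraries and 1 input for gl2_Amo.

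GL2 belongs to the class IV homeodomain leucine zipper (HD-Zip) proteins of the plant epidermis, in which the homeodomain contacts DNA, the leucine zipper serves dimerisation and the START domain is a lipid-binding module. The wild-type protein promotes trichome outgrowth, represses root hair fate in non-hair cells of the root and is needed for seed coat mucilage. Around Arabidopsis centromeres lie long arrays of satellite repeats, transposons and few genes, so that short reads from those stretches often match several places.

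The peak lists used here are merged, 1 per genotype, with no values per library, so the spread between replicates was not analysed here and no genotype difference was tested. The intervals given are 95% Wilson intervals that cover counting error only. The ChIP tags numbered 24075540 for gl2_dSTART and 70376472 for gl2_Amo, of which the peak caller retained 297665 (1.24%) for gl2_dSTART and 538666 (0.765%) for gl2_Amo after keeping 1 tag per position. The gl2-5 list used as the filter came from fewer tags, 4872999 with 227071 retained (4.66%), and held 681 nuclear peaks. A kept peak was thus absent from that list, and was not shown to be absent from the null mutant. The fragment length fitted by the caller was 54 bp for gl2_dSTART and 58 bp for gl2_Amo, near the tag length of 51 bp. In whole seedlings, fewer cells with the protein and less binding per cell cannot be told apart.

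The lists overlapped in 674 regions, and the overlap was a larger share of the gl2_dSTART list than of the gl2_Amo list. Of the gl2_dSTART peaks, 857 of 2318, or 37.0% (35.0 to 39.0), were shared. Of the gl2_Amo peaks, 689 of 3231, or 21.3% (19.9 to 22.8), were shared. In 547 regions 1 peak of each form met, in 112 several gl2_dSTART peaks lay under 1 gl2_Amo peak, in 3 several gl2_Amo peaks lay under 1 gl2_dSTART peak, and in 12 both forms had several. Up to 9 gl2_dSTART peaks fell into 1 region. The gl2_dSTART peaks covered 420948 bp and the gl2_Amo peaks 871094 bp, and the 243953 bp covered by both made up 58.0% of the gl2_dSTART span and 28.0% of the gl2_Amo span. With the gl2_Amo list cut to its 2318 highest-scoring peaks, 34.6% of the gl2_dSTART peaks and 27.2% of the gl2_Amo peaks were shared.

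The shared peaks lay around the centromeres. Gene-poor bins were defined as 500 kb intervals with fewer than 50% of the median 130 protein-coding genes, which held for 38 of 235 bins. They contained 598 of the 674 regions, or 88.7% (86.1 to 90.9). For gl2_dSTART, 90.7% of the shared and 31.8% of the private peaks lay there. For gl2_Amo, 88.8% of the shared and 44.0% of the private peaks did. Private peaks of both forms were thus spread more widely, as the histogram of distances from the gene-poor stretches shows. Within 1 Mb of the centre of the longest gene-poor stretch of their chromosome lay 83.5% of the shared and 21.1% of the private gl2_dSTART peaks, and 80.4% of the shared and 31.3% of the private gl2_Amo peaks.

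**Figure D1:**
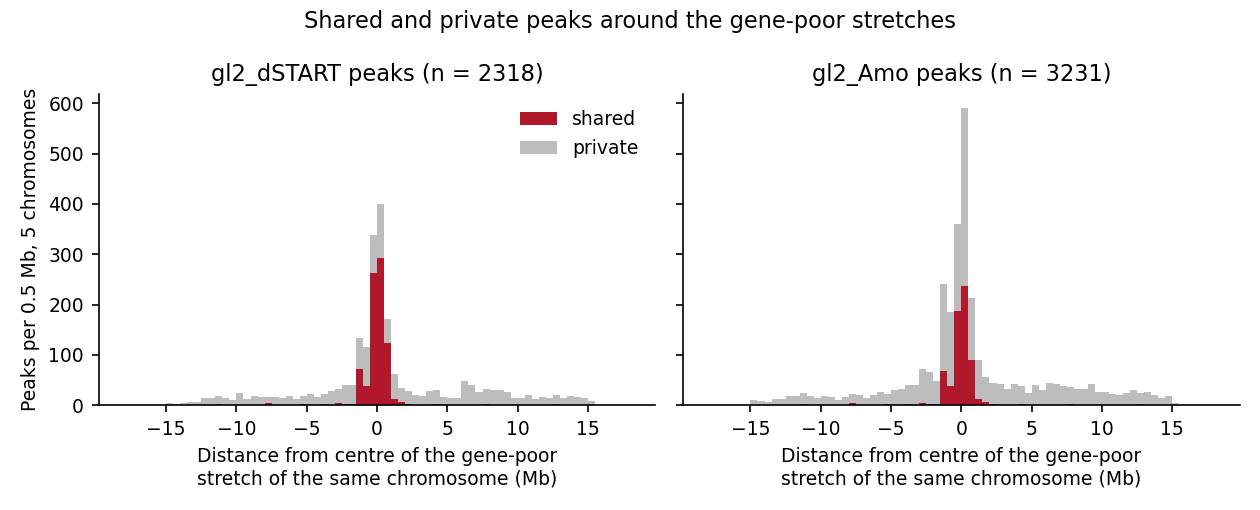
Number of peaks per 0.5 Mb, summed over the 5 chromosomes, against the distance in Mb from the centre of the longest gene-poor stretch of the same chromosome, for gl2_dSTART (left, n = 2318) and gl2_Amo (right, n = 3231). Shared (red) and private (grey) peaks are stacked; the shared ones stand in a narrow block at 0 and the private ones continue along both arms.

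The share of peaks found in both lists differed widely along the chromosomes. In gene-poor bins 62.6% of the gl2_dSTART peaks (777 of 1242) and 35.4% of the gl2_Amo peaks (612 of 1731) were shared. In all other bins these shares were 7.43% (80 of 1076) for gl2_dSTART and 5.13% (77 of 1500) for gl2_Amo. On the chromosome arms, meaning bins neither gene-poor nor next to a gene-poor one, 37 of 942 gl2_dSTART peaks (3.93%, 2.86 to 5.37) and 36 of 1291 gl2_Amo peaks (2.79%, 2.02 to 3.84) were shared. In bins next to gene-poor ones the shares were 32.1% for gl2_dSTART and 19.6% for gl2_Amo, but 1 bin, chr4:2500001-3000000, held 34 of the 43 shared gl2_dSTART peaks and 32 of the 41 shared gl2_Amo peaks there. Without it these bins had 9 of 82 gl2_dSTART peaks (11.0%, 5.88 to 19.6) and 9 of 133 gl2_Amo peaks (6.77%, 3.60 to 12.4) shared, and all bins that were not gene-poor had 4.49% of gl2_dSTART and 3.16% of gl2_Amo peaks shared.

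The gene-poor stretches of chromosomes 3 and 5 stood above those of chromosomes 1, 2 and 4. Chromosome 5 carried 278 of the 674 regions and chromosome 3 carried 200, against 99 on chromosome 1, 61 on chromosome 4 and 36 on chromosome 2. In gene-poor bins of chromosome 5, 76.8% of the gl2_dSTART peaks and 57.1% of the gl2_Amo peaks were shared, and on chromosome 3 these shares were 75.4% for gl2_dSTART and 48.1% for gl2_Amo. On chromosomes 1, 2 and 4 the gene-poor share ran between 29.9% and 40.5% for gl2_dSTART and between 13.0% and 18% for gl2_Amo. The bar chart of shares by chromosome shows this order in both forms, with intervals that do not overlap between chromosomes 3 and 5 on the one side and chromosomes 1, 2 and 4 on the other. These intervals take each peak as independent, although many peaks lie close together in the same bins. They are too narrow to test a difference between chromosomes. The bin with most peaks over both lists together, chr5:11500001-12000000, held 239 shared and 22 private gl2_dSTART peaks, and 170 shared and 43 private gl2_Amo peaks. In chr3:13500001-14000000 there were 202 shared and 15 private gl2_dSTART peaks, and 153 shared and 84 private gl2_Amo peaks.

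**Figure D2:**
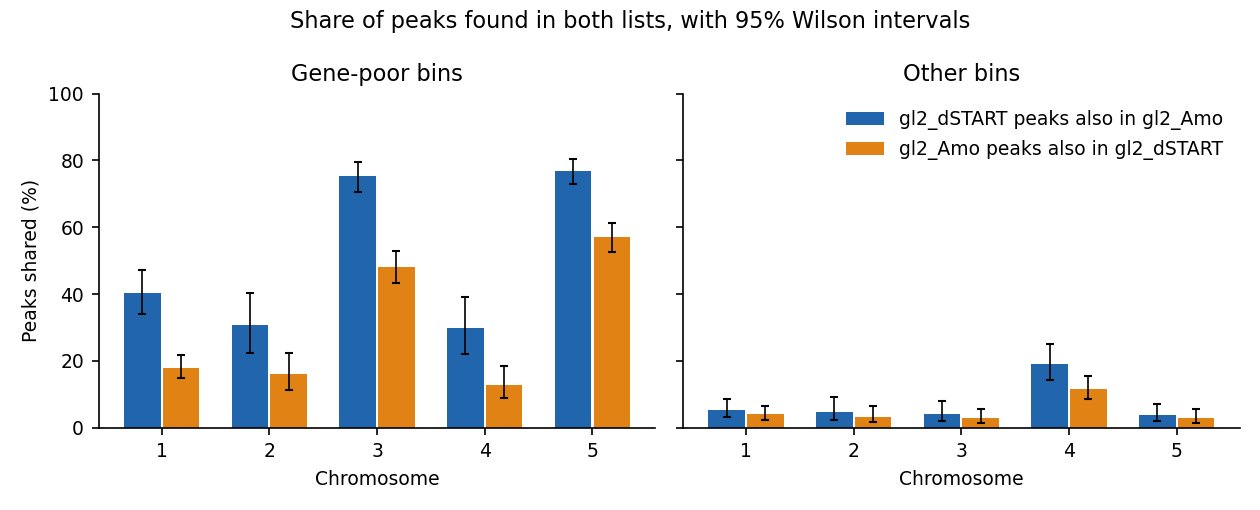
Percent of kept peaks shared with the other form on each chromosome, in gene-poor bins (left) and all other bins (right), for gl2_dSTART (blue) and gl2_Amo (orange). Error bars are 95% Wilson intervals; chromosomes 3 and 5 lead in gene-poor bins, and chromosome 4 leads outside them with 19.1% for gl2_dSTART and 11.6% for gl2_Amo, most of these peaks lying in 1 bin.

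Outside gene-poor bins chromosome 4 was the exception. It had 37 of the 76 regions found there, and 31 of these 37 lay in that same bin, chr4:2500001-3000000. Without the bin, chromosome 4 had 3.82% of gl2_dSTART and 2.38% of gl2_Amo peaks shared outside gene-poor bins. On chromosomes 1, 2, 3 and 5 the share outside gene-poor bins ran between 3.74% and 5.42% for gl2_dSTART and between 2.85% and 4.03% for gl2_Amo. Other bins were full but unequal. In chr1:15000001-15500000, the bin with the most private gl2_Amo peaks, there were 41 shared and 54 private gl2_dSTART peaks, against 40 shared and 177 private gl2_Amo peaks. All of these bins were picked out after their counts had been seen.

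Shared peaks were longer and held more tags than private ones in both lists. The median shared gl2_dSTART peak was 203 bp long with 20 tags, and the median private one 108 bp with 5 tags. The median shared gl2_Amo peak was 413 bp long with 57 tags, and the median private one 141 bp with 7 tags. Shared peaks held 85.2% of the tags within kept gl2_dSTART peaks and 71.0% of those within kept gl2_Amo peaks. Per 100 bp of peak there were 20.2 tags in shared and 5.30 in private gl2_dSTART peaks, and 24.5 tags in shared and 9.35 in private gl2_Amo peaks. These pooled values lean on a few wide peaks. The 14 gl2_dSTART peaks over 1 kb, all shared, held 29784 of the 51084 shared tags. For gl2_Amo, a private peak of 13569 bp held 12666 of the 42040 private tags. Many private peaks lay at the limit of calling. The fewest tags of any kept peak, 5 for gl2_dSTART and 6 for gl2_Amo, were found in 56.3% of the private and 3.73% of the shared gl2_dSTART peaks, and in 38.1% of the private and 2.03% of the shared gl2_Amo peaks. A place missing from a kept list was thus below the caller's limit at this depth or had been removed by the gl2-5 filter. It was not shown to be unbound.

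The fold enrichment ran the other way. The authors' fold is a ratio to local background. Its median was 14.3 in shared and 33.6 in private gl2_dSTART peaks, and 12 in shared and 18.4 in private gl2_Amo peaks. The fold did not follow from a peak's tags alone. Private gl2_dSTART peaks near HDG2 and TT4, each of 143 bp with 5 tags and a score of 59.8, had folds of 25.2 and 33.6. The authors' score, a p-value of the caller put as minus 10 log10, had a median of 91.1 in shared and 73.5 in private gl2_dSTART peaks, and of 147.8 in shared and 68.5 in private gl2_Amo peaks. The private peaks were thus short, with few tags and a higher fold. Peaks over 1 kb were mostly shared. All 14 such gl2_dSTART peaks were shared and held 49.7% of the tags of the kept list, and 77 of 80 such gl2_Amo peaks were shared, the 80 holding 54.0% of the tags.

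Sharing increased with the score in gene-poor bins, and elsewhere mainly from a score of 200, where peaks were few. For gl2_dSTART in gene-poor bins, 44.6% of the peaks with scores from 50 to 70 were shared, 56.8% from 70 to 100, 89.1% from 100 to 200 and 98.7% from 200. For gl2_Amo in gene-poor bins these shares were 12%, 21.2%, 54.0% and 97.1% over the same ranges of score. The highest-scoring gene-poor peaks were thus nearly all in both lists, as the plot of sharing by score shows. In other bins, 7.18%, 6.18% and 8.92% of the gl2_dSTART peaks were shared in the ranges below 200, and 4 of 8 from 200. For gl2_Amo in other bins the shares were 2.51%, 3.37% and 9.68%, and 14 of 29 from 200.

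**Figure D3:**
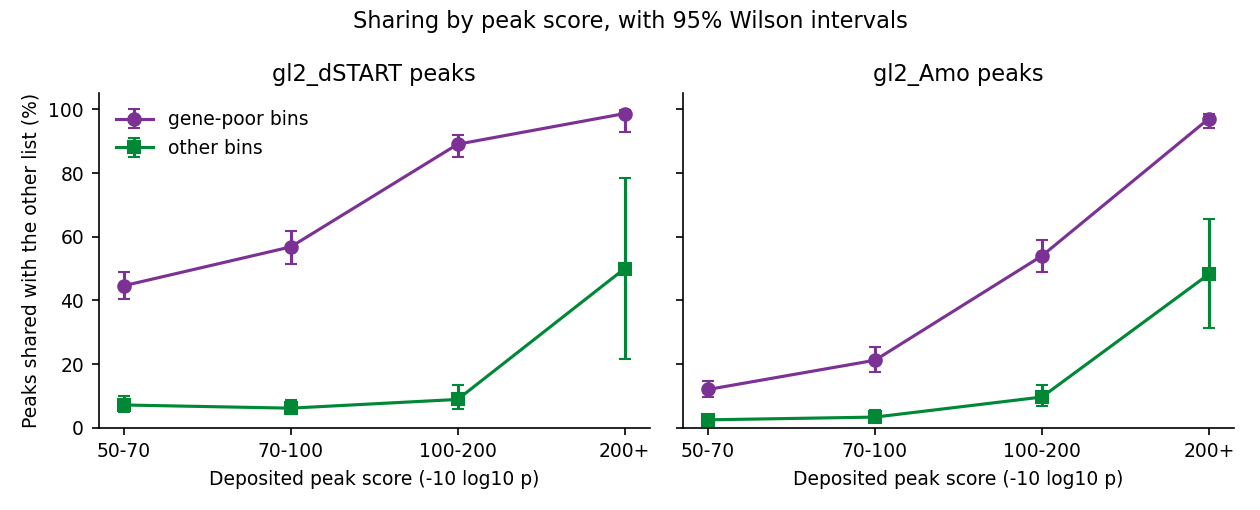
Percent of kept peaks shared with the other form against the deposited score (minus 10 log10 p), for gl2_dSTART (left) and gl2_Amo (right), in gene-poor bins (purple circles) and other bins (green squares). Error bars are 95% Wilson intervals; the purple line rises to 98.7% for gl2_dSTART and 97.1% for gl2_Amo, and the green one stays under 10% below a score of 200.

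A limit on the caller's false discovery rate (FDR) kept very different parts of the lists, since the median FDR was 1.02% for gl2_dSTART and 3.90% for gl2_Amo. At an FDR of 1% or less there were 981 gl2_dSTART peaks, of which 362 (36.9%) overlapped a gl2_Amo peak of any FDR, and 51 gl2_Amo peaks, of which 50 (98.0%) overlapped a gl2_dSTART peak of any FDR. With the limit put on both lists at once, 7.24% of the gl2_dSTART peaks and 88.2% of the gl2_Amo peaks were shared.

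In the 547 regions with 1 peak of each form, the tag counts of gl2_dSTART and gl2_Amo went together. Pearson's r of the log2 tags was 0.867 and Spearman's rho 0.850, as a description over regions that share their libraries and in which the peak lengths also vary. Their summits were close, with a median gap of 9 bp, and 429 pairs (78.4%) had summits within 50 bp of each other. Scaled to 100000 retained tags, the median peak held 5.71 tags for gl2_dSTART and 9.10 for gl2_Amo. The gl2_dSTART over gl2_Amo ratio of scaled tags had a median of 0.773, with quartiles of 0.587 and 0.965. The gl2_Amo peaks are longer, so the counts come from different spans. The ratio was 0.759 in gene-poor bins (n = 476) and 0.941 in the other bins (n = 71), and its counting interval lay above 1 in 7 regions and below 1 in 136. The scatter of scaled tags shows most points under the line of equality, and the 3 regions with most gl2_Amo tags lay above it, at ratios of 1.34, 1.06 and 1.09. In that order they held 13109 gl2_Amo tags in 10255 bp, 7057 in 7261 bp and 4052 in 4422 bp. The caller kept 1 tag per position, and the effect of that limit on the ratios of such dense regions was not tested.

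**Figure D4:**
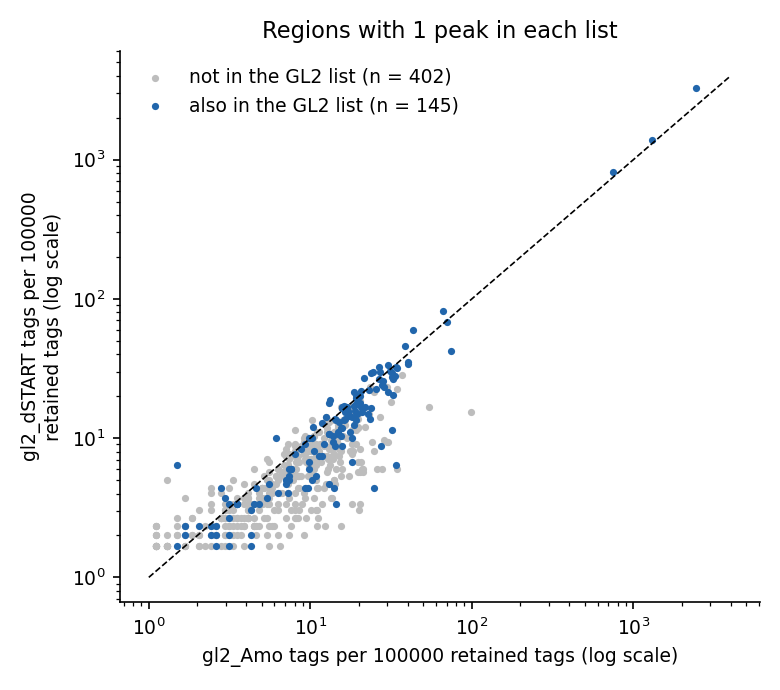
Scaled tags per region with 1 peak in each list, gl2_dSTART on the vertical and gl2_Amo on the horizontal axis, both in tags per 100000 retained tags on log scales; the dashed line marks equal values. Regions also in the GL2 list are blue (n = 145) and others grey (n = 402), and the blue points reach the highest counts.

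The extremes of this ratio named here, picked out after the values were seen, were in gene-poor bins. The highest was 4.30 (1.80 to 11.3) at chr1:15993741-15993853, with 19 tags for gl2_dSTART and 8 for gl2_Amo, 10221 bp from the gene MLO9. The next was 3.88 at chr4:3087484-3087848, with 15 tags for gl2_dSTART and 7 for gl2_Amo. The lowest was 0.151 at chr3:13748242-13749508, with 9 tags for gl2_dSTART and 108 for gl2_Amo, where the gl2_Amo peak was much the longer one. In bins that were not gene-poor the ratio ran from 0.166 to 2.21, so low values were found there too.

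A shared site was in the GL2 list far more often than a private one. Of the shared gl2_dSTART peaks 25.1% (22.3 to 28.1) were also GL2 peaks, and of the private ones 1.03% (0.623 to 1.69). Of the shared gl2_Amo peaks 28.7% (25.5 to 32.2) were also GL2 peaks, and of the private ones 2.2% (1.7 to 2.85). Seen from the other side, 215 of the 230 gl2_dSTART peaks found in the GL2 list (93.5%) were shared with gl2_Amo, and 198 of the 254 gl2_Amo peaks found in it (78.0%) were shared with gl2_dSTART. The order was the same within each range of score, but for scores from 50 to 70 the gl2_Amo shares, 1.98% of the shared (0.545 to 6.93) and 1.23% of the private peaks (0.757 to 1.98), had overlapping intervals. For scores from 100 to 200, 28.7% of the shared and 2.63% of the private gl2_dSTART peaks were in the GL2 list, as were 20.3% of the shared and 3.76% of the private gl2_Amo peaks. From a score of 200 these shares were 82.5% of the shared and 0 of 5 private gl2_dSTART peaks, and 55.8% of the shared and 4 of 22 private gl2_Amo peaks.

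The other fusions gave the same order, as the bars of recurrence show. Among gl2_dSTART peaks, 43.6% of the shared and 6.64% of the private ones were in the gl2_dZip list, and 31.3% of the shared and 3.22% of the private ones in the gl2_E375G R392M list. Among gl2_Amo peaks, 43.1% of the shared and 8.50% of the private ones were in the gl2_dZip list, and 34.8% of the shared and 3.38% of the private ones in the gl2_E375G R392M list. Private sites were thus mostly seen once: 90.1% of the private gl2_dSTART peaks and 87.9% of the private gl2_Amo peaks were in no other fusion list. Of the 674 regions, 195 (28.9%) were in the GL2 list, 36 in all 3 of these lists and 193 in none. The list lengths differ, with 1259 nuclear peaks for gl2_dZip, 1280 for gl2_E375G R392M and 1001 for GL2.

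**Figure D5:**
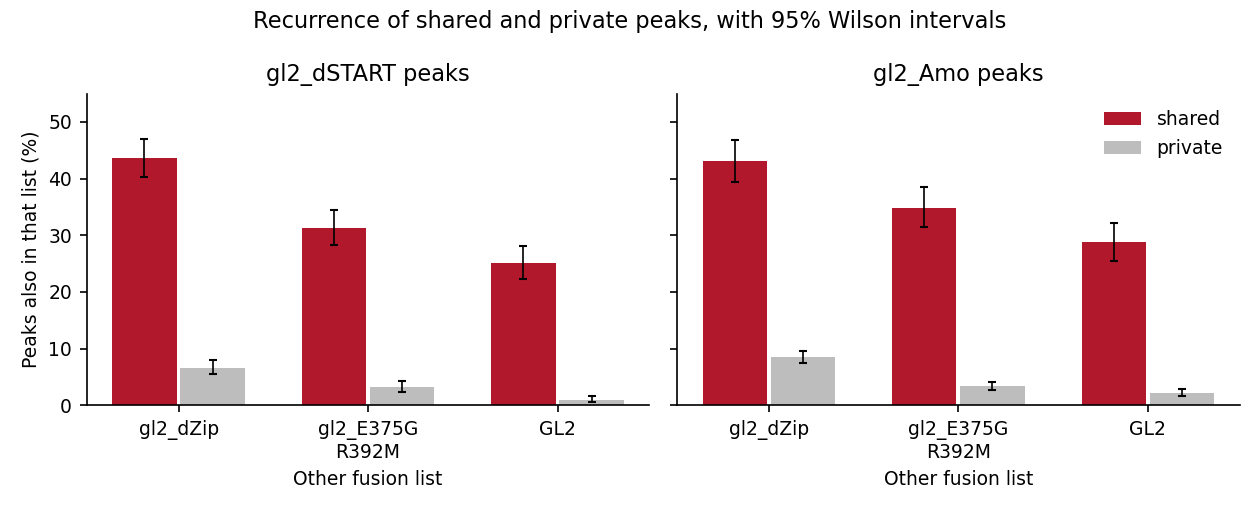
Percent of shared (red) and private (grey) peaks of gl2_dSTART (left) and gl2_Amo (right) that were also in the gl2_dZip, gl2_E375G R392M and GL2 lists. Error bars are 95% Wilson intervals; each red bar is at least 25.1% and each grey bar at most 8.50%.

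On the arms the regions were few, and most had a gene nearby. Of the 36 arm regions, 9 recurred with gl2_dZip, 21 with gl2_E375G R392M and 15 (41.7%, 27.1 to 57.8) with GL2, and for 29 a protein-coding gene lay no more than 1 kb away. Among the 598 gene-poor regions, 169 (28.3%) were in the GL2 list and 11 had a gene within 1 kb. With the gl2-5 overlaps kept, 650 of 852 regions (76.3%) were in gene-poor bins, against 598 of 674 after the filter. Shared gl2_dSTART peaks then numbered 1041 and private ones 1498, against 857 and 1461 after the filter. For gl2_Amo these numbers were 869 and 2664, against 689 and 2542. The filter thus lowered the shared counts more than the private ones, and raised the gene-poor share of the regions.

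The 8 best-ranked regions, taken by the worse of their ranks by score in the 2 lists, were all in gene-poor bins, and each was also in the GL2 and gl2_E375G R392M lists. The first, chr4:3054289-3061549, had 4144 tags at fold 7.09 for gl2_dSTART and 7057 tags at fold 3.71 for gl2_Amo. At chr5:11184528-11188949 there were 2431 tags at fold 6.09 for gl2_dSTART and 4052 tags at fold 3.37 for gl2_Amo. At chr2:3617931-3628185, over the gene AT2G08986, there were 9718 tags at fold 7.07 for gl2_dSTART and 13109 tags at fold 3.09 for gl2_Amo. These 3 were broad and of low fold in both lists, and the median shared peak had a fold of 14.3 for gl2_dSTART and 12 for gl2_Amo. On chromosome 4, the 22213 bp of chr4:3965566-3987778 formed 1 gl2_Amo peak of 14924 tags, where 7 gl2_dSTART peaks stood side by side. Near it, chr4:3997866-4011715 had 2 peaks of each form. Narrower regions in this set were chr5:11755364-11756768, with 203 tags at fold 19.3 for gl2_dSTART and 376 tags at fold 19.9 for gl2_Amo, and its neighbour chr5:11753949-11755175, whose best peaks had folds of 16.5 for gl2_dSTART and 13.6 for gl2_Amo. The last of the 8, chr2:3663999-3664440, had 101 tags at fold 10.3 for gl2_dSTART and 218 tags at fold 12.2 for gl2_Amo.

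Few shared regions were close to genes. Among 27444 protein-coding genes, 54 (0.197%) were within 1 kb of the summits of a shared region, 1125 (4.1%) were near a gl2_dSTART peak and 1586 (5.78%) near a gl2_Amo peak. Of these, 993 genes (3.62% of all) were near private gl2_dSTART peaks only, and 1454 (5.3% of all) near private gl2_Amo peaks only. The 132 genes (0.481%) near peaks of both forms made up 11.7% of the genes near gl2_dSTART and 8.32% of those near gl2_Amo, and 78 of them (0.284%) had private peaks of both forms and no shared region. Genes near shared regions were also more often near a GL2 peak: 27 of the 54 (50%, 37.1 to 62.9), against 2.92% of the genes near private gl2_dSTART peaks only, 5.02% of those near private gl2_Amo peaks only and 2.49% of all genes. With the gl2-5 overlaps kept, the genes near a shared region numbered 193.

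Over all bins together, shared summits were rare inside annotated features. Protein-coding genes held 3.73% of the shared and 42.2% of the private gl2_dSTART summits, and 4.50% of the shared and 32.9% of the private gl2_Amo summits. Outside gene-poor bins, where few shared peaks lay, shared summits were not rare in protein-coding genes. Such genes held 32.5% of the shared and 59.3% of the private gl2_dSTART summits there. For gl2_Amo they held 32.5% of the shared and 55.02% of the private summits. Pseudogenes held 3.03% of the shared and 14.2% of the private gl2_dSTART summits, and 3.77% of the shared and 15.1% of the private gl2_Amo summits. Within gene-poor bins alone the pseudogene shares were 3.22% of the shared and 32.3% of the private gl2_dSTART summits, and 4.08% of the shared and 24.0% of the private gl2_Amo summits. Outside genes, pseudogenes, RNA genes and the 1 kb flanks of protein-coding genes lay 91.0% of the shared and 27.3% of the private gl2_dSTART summits, and 89.4% of the shared and 38.2% of the private gl2_Amo summits.

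Apart from AT2G08986 above, the best-ranked shared regions with a gene within 1 kb were from 86 to 533 bp long, and their best peaks held 7 to 42 tags for gl2_dSTART and 11 to 80 tags for gl2_Amo. At AT5G24610 (chr5:8428144-8428237) there were 14 tags at fold 77.0 for gl2_dSTART, 30 tags at fold 49.6 for gl2_Amo and 20 tags at fold 142 for GL2. At AT2G01460 (chr2:208261-208380) there were 15 tags at fold 86.2 for gl2_dSTART, 40 tags at fold 40.1 for gl2_Amo and 26 tags at fold 184 for GL2. Both sites were also in the gl2_dZip and gl2_E375G R392M lists. At AT1G33860 (chr1:12294093-12294618) the best peaks had 13 tags at fold 101 for gl2_dSTART, 40 tags at fold 99.4 for gl2_Amo and 11 tags at fold 16.3 for GL2. The kinase gene SKdZeta (AT2G30980), of the GSK3/shaggy-like family, had 7 tags at fold 27.0 for gl2_dSTART, 14 tags at fold 60.5 for gl2_Amo and 6 tags at fold 42.5 for GL2 at chr2:13185649-13185734. All 4 sites were on the arms. The summit of the best gl2_dSTART peak at AT1G33860 lay 135 bp outside the gene, and at the other 3 sites it lay inside the gene.

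Other sites of this set lay in or next to gene-poor bins, or were absent from the GL2 list. The site 189 bp from AT1G38790 (chr1:14544424-14544956) had 20 tags at fold 17.9 for gl2_dSTART and 53 tags at fold 14.4 for gl2_Amo, and AT3G43990 (chr3:15784613-15784699) had 10 tags at fold 13.7 for gl2_dSTART and 19 tags at fold 11.6 for gl2_Amo. Both were in the GL2 list. The site in AT1G26100 (chr1:9023703-9023791), 595 bp from DCP5, which encodes an mRNA decapping component, had 9 tags at fold 75.6 for gl2_dSTART and 11 tags at fold 47.5 for gl2_Amo. The site 746 bp from AT1G34040 (chr1:12377060-12377187) had 8 tags at fold 67.2 for gl2_dSTART and 15 tags at fold 50.8 for gl2_Amo. Neither of these was in the GL2 list.

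PDF2, a class IV HD-Zip gene related to GL2 that acts in the outer cell layer, was the only shared gene among the HD-Zip, epidermal and housekeeping lists examined. Its shared site, chr4:2476461-2476639, had 11 tags at fold 67.2 for gl2_dSTART, 16 tags at fold 38.9 for gl2_Amo and 36 tags at fold 85.1 for GL2, and it lay 473 bp from PCFS4, a gene for a pre-mRNA cleavage factor. This site was what the filter had left. Before the filter PDF2 had 13 gl2_dSTART peaks and 14 gl2_Amo peaks, of which 12 for gl2_dSTART and 13 for gl2_Amo overlapped peaks of the null mutant. At GL2 itself 10 gl2_dSTART peaks and 5 gl2_Amo peaks had been listed, and 2 gl2_dSTART peaks and 0 gl2_Amo peaks were kept. The fusion lines carry GL2 sequence in the transgene, and tags from it and from the chromosomal gene cannot be told apart in these lists.

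The remaining members of the lists, named after their values were seen, had private peaks of 5 to 10 tags. Of 112 different genes examined, 9 were near a gl2_dSTART peak (8.04%, against 4.1% of all protein-coding genes) and 4 near a gl2_Amo peak (3.57%, against 5.78% of all protein-coding genes), with PDF2 in both. Among 16 class IV HD-Zip genes, GL2 had private gl2_dSTART peaks of 5 tags each at folds 24.3 and 41.0, both also in the GL2 list, and HDG2 had one of 5 tags at fold 25.2. Among 22 trichome patterning genes, those for the small MYB inhibitors of trichome fate CPC (6 tags, fold 50.4) and TRY (5 tags, fold 24.3, at 240 bp) were near private gl2_dSTART peaks, and none was near a kept gl2_Amo peak. The trichome gene MYB23 had 1 gl2_dSTART peak and 1 gl2_Amo peak before the filter, and both overlapped the null mutant's peaks and were removed. For gl2_Amo, private peaks lay 102 bp from the root hair expansin gene EXPA7 (6 tags, fold 21.6; 1 of 16 root hair genes) and in MYB106, which encodes a MYB factor of trichomes and cuticle (10 tags, fold 43.2; 1 of 19 cuticle genes). The mucilage gene FEI2 (7 tags, fold 50.4; 1 of 11) and the chalcone synthase gene TT4 (5 tags, fold 33.6; 1 of 12 anthocyanin genes) were near private gl2_dSTART peaks. None of 5 class III HD-Zip genes was near a peak of either form. Of 12 housekeeping genes, ACT8 and UBQ3 were near private gl2_dSTART peaks of 5 tags each, and UBQ10 near a private gl2_Amo peak of 7 tags. Nothing particular to the epidermal lists can be read from these counts.

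Most genes with a shared region had only 1. AT4G05612 on chromosome 4, in the bin with 31 regions, had 4 shared regions between 2959457 and 2964658, the best at chr4:2960703-2961055 with 42 tags at fold 21.7 for gl2_dSTART and 67 tags at fold 17.3 for gl2_Amo. The region at chr4:2959457-2959732, with 33 tags at fold 9.07 for gl2_dSTART and 80 tags at fold 16.8 for gl2_Amo, was the only 1 of the 4 in the GL2 list. AT1G38790 had 3 shared regions and MEE38, both of whose regions were in the GL2 list, had 2. The other 51 genes had 1 each, among them AT1G09910 and its neighbour AT1G09920, which share the site chr1:3224476-3224671 (7 tags at fold 50.4 for gl2_dSTART, 11 tags at fold 21.6 for gl2_Amo).

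Several arm regions lay in or near genes of known function, named here after their values were seen. CUL4, which encodes the scaffold of a family of ubiquitin ligases, had 6 tags at fold 42.0 for gl2_dSTART and 9 tags at fold 38.9 for gl2_Amo. POK2, for a kinesin of division plane placement, had 6 tags at fold 50.4 for gl2_dSTART and 6 tags at fold 17.3 for gl2_Amo. Neither site was in another fusion list. PP2A-3, for a catalytic subunit of protein phosphatase 2A, had 6 tags at fold 13.1 for gl2_dSTART and 8 tags at fold 34.6 for gl2_Amo, and MAG1, for a retromer subunit, had 6 tags at fold 31.6 for gl2_dSTART and 11 tags at fold 40.2 for gl2_Amo at 678 bp. Both were also in the gl2_E375G R392M list but not in that of GL2. NUA, for a protein of the nuclear pore, had 6 tags at fold 14.8 for gl2_dSTART and 9 tags at fold 13.3 for gl2_Amo, and its site was in the gl2_E375G R392M and GL2 lists.

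Private gl2_dSTART peaks with the highest scores were narrow and none was in the GL2 list. The top one lay in AT1G79510 (chr1:29909929-29909998), with 12 tags at fold 101 and 38001 bp to the nearest gl2_Amo peak. The next lay 132 bp from YY1, for a transcription factor (12 tags, fold 101), and 29 bp from AT2G42900 (8 tags, fold 67.2). Peaks followed in KUP3, for a potassium transporter (10 tags, fold 84.0), 239 bp from STP1, for a sugar transporter (9 tags, fold 75.6), in IAA7, for a repressor of auxin responses (8 tags, fold 46.0), 418 bp from FdC2, for a ferredoxin-like protein (10 tags, fold 44.9), and in AT5G66900 (9 tags, fold 75.6). Away from genes the highest-scoring were chr2:12332758-12332831 (13 tags, fold 109), chr1:24015177-24015238 (9 tags, fold 72.9) and chr3:11904949-11905028 (9 tags, fold 68.5). The first of these was also in the gl2_dZip list and the last in the gl2_E375G R392M list.

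Private gl2_Amo peaks near genes were of the same kind, and the best of them were not in the GL2 list either. They lay in AT2G43210 (chr2:17962878-17962947, 13 tags, fold 56.2), 50 bp from AT4G28240 (13 tags, fold 56.2), in AT3G56570 (20 tags, fold 30.2), 752 bp from AT3G15300 (14 tags, fold 49.2), in AT5G18350 (16 tags, fold 69.1), in AT3G03700 (12 tags, fold 51.9), in AT5G55565 (11 tags, fold 47.5) and 935 bp from MYB31, for a MYB factor (10 tags, fold 43.2). The site in AT3G56570 was also in the gl2_E375G R392M list. Away from genes, private gl2_Amo peaks were larger. They were chr3:13774295-13775539 (156 tags, fold 11.9), chr3:13809336-13810148 (102 tags, fold 14.3, also in the GL2 list) and chr2:3562577-3562789 (29 tags, fold 69.9). The first of these lay 38 bp and the second 2 bp from a gl2_dSTART peak. The first was also in the gl2_dZip and gl2_E375G R392M lists, and the last in the gl2_dZip list.

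Most private peaks were far from the other list, and some missed it by a few bases. The median distance to the nearest peak of the other form was 15026 bp for private gl2_dSTART peaks and 17110 bp for private gl2_Amo peaks. Within 500 bp lay 135 private gl2_dSTART peaks (9.24%) and 272 private gl2_Amo peaks (10.7%), and over 10 kb away lay 849 for gl2_dSTART (58.1%) and 1504 for gl2_Amo (59.2%). At the edge of the rule, the smallest overlap was 2 bp, between a gl2_dSTART peak at chr4:2964342-2964658 (23 tags, fold 22.0) and a gl2_Amo peak at chr4:2963679-2964343 (37 tags, fold 6.33). Just outside it, a gl2_dSTART peak at chr3:11178501-11178639 (7 tags, fold 50.4) lay 3 bp from a gl2_Amo peak at chr3:11178331-11178498 (7 tags, fold 19.3).

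A tandem gene array on chromosome 4 carried private peaks of both forms side by side. Between neighbouring kept peaks up to 10 kb apart, the most common distance from start to start was 3259 bp in the gl2_dSTART list and in the gl2_Amo list, with 10 pairs each, and all of these lay in chr4:11047048-11091149. There were 16 gl2_dSTART peaks of 6 to 9 tags and 13 gl2_Amo peaks of 10 to 16 tags in that stretch, and 0 of them were shared. Of the 13 gl2_Amo peaks, 12 started exactly 559 bp after a gl2_dSTART peak, so the forms were called at different places of the same repeating unit. The stretch held 0 peaks for gl2_E375G R392M, GL2 and gl2-5 and 5 for gl2_dZip. Those 5 had 106 to 150 tags at folds of 6.03 to 7.05, all at an FDR of 100%, in a list from 1248287 retained tags. The genes of the stretch ran from AT4G20520 to AT4G20650 and included 20 near gl2_dSTART and 17 near gl2_Amo peaks. They made up 17 of the 78 genes with private peaks of both forms. The stretch was found after the data had been seen. How the authors placed reads that match several units is not given in the sources used here, and its part in this spacing was not tested.

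A cluster of tRNA genes on chromosome 1 carried gl2_dSTART peaks and no gl2_Amo peak, which was noticed after the data had been seen. The bin chr1:21000001-21500000 holds 81 of the 625 nuclear tRNA genes, a tandem array of serine and tyrosine tRNA genes. In it 24 gl2_dSTART peaks of 5 to 12 tags and folds of 12.6 to 37.9, between 21269524 and 21308466, each overlapped a tRNA gene, against 0 gl2_Amo peaks. Across all chromosomes these counts were 26 for gl2_dSTART and 0 for gl2_Amo. They were 15 for gl2_dZip, 2 for GL2 and 0 for gl2_E375G R392M and gl2-5. The gl2_dZip list had 6 such peaks in the bin, and the lists of gl2_E375G R392M, GL2 and gl2-5 had 0 there. Peaks in such an array share nearly the same sequence and do not count as independent sites.

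The ribosomal RNA genes differed between the lists as well, a pair of places chosen after their values were seen. On chromosome 3 a private gl2_Amo peak of 13569 bp (chr3:14191647-14205215, 12666 tags, fold 5.29) covered AT3G41768 and AT3G41979, where no gl2_dSTART peak was listed and the GL2 list had a peak of 9923 tags at fold 3.70. On chromosome 2 the ribosomal RNA genes were under peaks of 4775 tags for gl2_dSTART and 7579 tags for gl2_Amo, and also under a gl2-5 peak, so the filter had removed both.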

How the data were processed

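ChIP-seq of 10 day old seedlings gave 1 peak list per genotype. Per the submitters' processing notes, the genome build was TAIR10 (tools named there are Bowtie2 2.2.3, bcl2fastq and MACS2 1.4.2); per the file headers the caller was MACS 1.4.2, run on merged ChIP libraries against 1 input at a p-value cutoff of 1e-05, with 1 tag kept per position. Handling of reads that match several places is not given in the sources used here. Per the file headers, each deposited peak has a length, a tag count (whole tags, not scaled to depth), a score (minus 10 times the log10 p), a fold enrichment (ratio to local background) and an FDR in percent. Scores, folds and FDRs served to rank, filter and describe peaks inside 1 list; tag counts were also compared between the lists, scaled to 100000 retained tags, where 1 peak of each form overlapped.

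Overlaps, bins and Wilson intervals were computed in Python 3.11.15 with pandas 2.3.3, numpy 2.4.6 and scipy 1.17.1, on coordinates from the files (TAIR10, counted from 1). Overlap calls were checked on simulated data with planted shared peaks. A RefSeq gene table on TAIR10.1 served only for names and for which gene a summit was in or within 1 kb of; names shared by several genes were settled by locus. Of 113 different genes in 8 lists, 112 were matched. A region's gene count includes any protein-coding gene within 1 kb of a summit. The 8 peaks on organelle genomes were left out.

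Named sites were the 8 best-ranked shared regions, the 12 best with a gene, the 8 best with a gene and in the GL2 list, the 8 highest-scoring private peaks of each form with a gene and 3 without, list members with a shared peak, the 5 genes with most shared regions and the peaks at the edge of the rule. Other sites are said to be chosen after their values were seen. The members, lists and bins were chosen with earlier results of these data known. Alternatives changed the overlap, the score or FDR limit, the gl2-5 filter, the list length, wide peaks, gene-poor bins and the gene distance. No sequences were read.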

Additional observations from a re-analysis of the deposited data

How the results depend on the processing

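No paired analysis was possible because each genotype has 1 merged list, and leaving out replicates was not possible for the same reason. Of 145 values under alternatives, 77 moved by less than their interval (counts by less than 1.5 times) and 68 moved. Shared peaks were in the GL2 list more often than private ones in all 28 pairs of list and setting, the chosen setting included. Beyond what each setting does by construction, the cause was not tested.

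With summits within 100 bp required, 25.3% of gl2_dSTART and 18.2% of gl2_Amo peaks were shared. In the GL2 list were then 31.0% of the shared and 2.77% of the private gl2_dSTART peaks, and 32.4% of the shared gl2_Amo peaks, and 41.9% of the private gl2_dSTART peaks were gene-poor. With peaks within 500 bp joined, 42.8% of gl2_dSTART and 29.7% of gl2_Amo peaks were shared, and 22.0% of the shared gl2_dSTART and 21.3% of the shared gl2_Amo peaks were in the GL2 list. Gene-poor were then 76.4% of regions, 27.9% of private gl2_dSTART and 39.6% of private gl2_Amo peaks, and 91 genes were near a shared region.

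With an FDR of 1% or less in both lists, 7.24% of gl2_dSTART and 88.2% of gl2_Amo peaks were shared. In the GL2 list were 54.9% of the shared and 10.4% of the private gl2_dSTART peaks, and 73.3% of the shared and 16.7% of the private gl2_Amo peaks. Gene-poor were 97.7% of regions, 43.6% of private gl2_dSTART and 100% of the 6 private gl2_Amo peaks. Genes numbered 2 near a shared region, 562 near private gl2_dSTART peaks only and 0 near private gl2_Amo peaks only. At a score of at least 80, 44.0% of gl2_dSTART and 28.1% of gl2_Amo peaks were shared. In the GL2 list were 37.8% of the shared and 1.80% of the private gl2_dSTART peaks, and 42.5% of the shared and 5.47% of the private gl2_Amo peaks. Gene-poor were 92.5% of regions, 24.7% of private gl2_dSTART and 47.1% of private gl2_Amo peaks. Genes numbered 23 near a shared region, 499 near private gl2_dSTART peaks only and 578 near private gl2_Amo peaks only.

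With gl2_Amo cut to the gl2_dSTART list length, 34.6% of gl2_dSTART and 27.2% of gl2_Amo peaks were shared. With gl2-5 overlaps kept, 41.0% of gl2_dSTART and 24.6% of gl2_Amo peaks were shared, 76.3% of regions were gene-poor and 193 genes were near a shared region. In the GL2 list were then 37.6% of the shared and 1.94% of the private gl2_dSTART peaks, and 42.6% of the shared and 4.99% of the private gl2_Amo peaks. Without peaks over 1 kb, 29.4% of gl2_dSTART and 19.4% of gl2_Amo peaks were shared, and of the private gl2_dSTART peaks 2.83% were in the GL2 list and 38.6% gene-poor. Without gene-poor bins, 7.43% of gl2_dSTART and 5.13% of gl2_Amo peaks were shared, and 32.5% of the shared gl2_dSTART and 33.8% of the shared gl2_Amo peaks were in the GL2 list. Genes with a summit inside them numbered 31 for shared regions, 584 for private gl2_dSTART peaks only and 790 for private gl2_Amo peaks only, and 83 genes were within 2 kb of a shared region. Chosen after seeing the data, leaving out also the bins next to gene-poor ones gave 3.93% of gl2_dSTART and 2.79% of gl2_Amo peaks shared, with 40.5% of the shared gl2_dSTART and 41.7% of the shared gl2_Amo peaks in the GL2 list. Leaving out gene-poor bins and only chr4:2500001-3000000 of those next to them, also chosen after seeing the data, gave 4.49% of gl2_dSTART and 3.16% of gl2_Amo peaks shared, with 43.5% of the shared gl2_dSTART and 44.4% of the shared gl2_Amo peaks in the GL2 list. The third added setting, GL2 peaks without gl2-5 overlap, moved no value.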
